A study of Mus musculus with 14 samples.

Results

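Fos, Fosb, Fosl1, Fosl2, Jun, Egr1, Egr2, Ier2 and Ier3 are genes of the immediate early and AP-1 group, and they were followed over all 14 arrays of a mouse reprogramming series. They were chosen by symbol: 13 probe sets carried 1 of these symbols alone, out of 45101 probe sets on the array, and gave 9 of the 18193 genes that could be named. All 9 were among the 12663 genes bright enough to be tested. Levels are deposited log2 RMA signals, on which a step of 1 is a doubling. A gene with several probe sets is given by its brightest one unless stated, and levels of different genes are not set against each other, since each probe set has its own brightness.

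Immediate early genes are switched on within minutes of a stimulus such as serum or a growth factor, without the need for new protein. The ERK kinase cascade is a main route to them: it activates ternary complex factors that sit with SRF on CArG boxes in promoters of genes such as Egr1, Egr2 and Fos, while CREB acts through cAMP response elements. Fos and Jun family proteins then pair to form AP-1, which binds DNA and drives a later wave of genes, and EGR proteins bind GC-rich sites of their own. The 2i medium holds inhibitors of MEK, the kinase that activates ERK, and of GSK3.

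The samples were cultured mouse cells with 1 array each. Partial iPSCs, reprogrammed cells that stopped short of pluripotency, came from clones 2B1 and 5C5 (female, C57BL/6) kept untreated in LIF and serum. The same 2 clones after conversion to iPSCs by exposure to 2i gave the 2i arrays, so that medium and cell state differ together between these groups. Embryonic stem cells (ESCs), in the conventional medium, were the Nanog-GFP line (male, C57BL/6, from a Nanog-GFP transgenic mouse) and the wild-type EBRTcH3 line (male, 129sv). Mouse embryonic fibroblasts (MEFs) from Nanog-GFP transgenic embryos, of mixed sex on C57BL/6 and grown without LIF, gave 1 array; the sample title puts the embryos at 12.5 dpc and the series text at 13.5 dpc. The other 7 arrays were 2B1 partial iPSCs in LIF and serum, labelled as carrying Cnot1, Cnot2, Cnot3, all 3 of these (Cnot123), Trim28, Nanog or an empty vector. The series text describes the Cnot and Trim28 cDNAs as brought in by retrovirus and the empty vector and Nanog as stably integrated. Replicates within a group are therefore separate clones or lines, and no clone or line was measured more than once under a condition.

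The labelled cell types were set against their markers. All 10 naive pluripotency markers reached the table's median of 5.42 on each 2i and ESC array, against 5 or 6 on the untreated arrays, where Zfp42 lay at 2.38 and 2.57. All 10 fibroblast markers did so on the MEF array and on both 2i arrays, 9 on each untreated array, and 3 or 4 on the ESC arrays. The 2i arrays, labelled as converted iPSCs, thus carried both marker lists, with mean fibroblast marker signals of 10.12 and 10.21 against 9.44 and 9.16 in the untreated clones and 5.81 and 5.71 in ESCs. Of 5 macrophage and blood markers on the array, 1 to 3 reached the table's median on each array. Cd68 read 5.13 to 8.67 over the 14 arrays. Ptprc lay between 2.78 and 3.28 on all 14, near the lowest values of an array, which were 1.8 to 2.22. The 7 transduced arrays were normalized apart from the other 7, so tests and differences stay within each set of 7 unless stated. RNA quality controls differed modestly, with 3′ minus 5′ Actb signals of 0.46 to 0.82 and Gapdh signals of -0.07 to 0.19 on the log2 scale.

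Promoter windows help to show what the group's regulatory sequence looks like. RefSeq windows on GRCm38.p6, from 250 bases before to 50 after a start site, were searched for 6 of the 9 genes. These genes were Egr2, with 5 start sites, and Fos, Fosb, Fosl2, Ier3 and Jun with 1 each. No window of Egr1, Fosl1 or Ier2 was searched, so nothing is said here of motifs in their promoters. The 4 windows printed here belong to genes whose levels separated the untreated from the 2i arrays, and motif matches on either strand are in capitals. Levels of Jun and Ier3 separated these arrays too, and their windows, which held no motif match, are not printed. They are Fos at chr12:85473640-85473939 (plus strand), Fosb at chr7:19309996-19310295 (minus strand), Egr2 at chr10:67537619-67537918 (plus strand) and Fosl2 at chr5:32136222-32136521 (plus strand), each 5′ to 3′ along the gene.
Fos: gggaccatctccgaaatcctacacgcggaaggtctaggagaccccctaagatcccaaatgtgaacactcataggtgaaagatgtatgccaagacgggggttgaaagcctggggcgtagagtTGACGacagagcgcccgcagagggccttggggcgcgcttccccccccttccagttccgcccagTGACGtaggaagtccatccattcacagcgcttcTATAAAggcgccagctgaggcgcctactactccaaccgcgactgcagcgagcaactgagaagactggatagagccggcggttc
Fosb: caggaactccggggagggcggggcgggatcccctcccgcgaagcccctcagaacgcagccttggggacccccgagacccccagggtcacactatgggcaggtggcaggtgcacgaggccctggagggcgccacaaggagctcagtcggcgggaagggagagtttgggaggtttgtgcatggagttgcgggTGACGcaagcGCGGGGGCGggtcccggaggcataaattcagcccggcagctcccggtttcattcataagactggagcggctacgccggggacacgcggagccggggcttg
Egr2: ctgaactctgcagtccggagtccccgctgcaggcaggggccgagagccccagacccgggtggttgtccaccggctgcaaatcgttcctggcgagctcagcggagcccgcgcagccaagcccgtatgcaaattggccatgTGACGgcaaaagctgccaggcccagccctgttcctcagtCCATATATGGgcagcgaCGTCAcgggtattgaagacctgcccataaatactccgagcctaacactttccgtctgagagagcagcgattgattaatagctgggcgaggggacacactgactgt
Fosl2: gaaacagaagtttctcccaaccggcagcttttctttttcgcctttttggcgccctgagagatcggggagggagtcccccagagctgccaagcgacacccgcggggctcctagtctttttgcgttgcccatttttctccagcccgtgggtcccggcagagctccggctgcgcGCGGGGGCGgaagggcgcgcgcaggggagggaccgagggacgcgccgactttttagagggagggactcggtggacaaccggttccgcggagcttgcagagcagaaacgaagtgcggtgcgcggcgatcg

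The motifs searched were the CArG box, the full cAMP response element TGACGTCA and its 5-base start TGACG, the AP-1 site TGANTCA, the EGR site GCGGGGGCG, the ETS core CCGGAA and TATAAA. In Egr2 the capitals mark a CArG box, CCATATATGG, whose first base lies at -72 from the start site, between TGACG matches at -111 and -55. A CArG box stood in 4 of the 5 Egr2 windows, which is not a count of separate sites. The overlapping windows that start at 67537619, 67537620 and 67537680 hold the same CCATATATGG. The window that starts at 67537316 holds CCTTTTTTGG. Of 32851 windows of this length, 1.63% held a CArG box. Fos held TGACG at -129 and -66 and TATAAA at -33. TGACG alone occurred in 20.8% of all windows and TATAAA in 13.6%. Fosb held TGACG at -60 beside the EGR site at -50, and Fosl2 held the EGR site at -79; that site occurred in 2.91% of windows. The Jun and Ier3 windows held no exact match to any motif searched, and near matches were not counted in any window. Neither TGACGTCA nor TGANTCA was found in the 10 windows, against 1.79% and 7.81% of all windows. These are matches of letters in short windows and say nothing of binding.

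**Figure D1:**
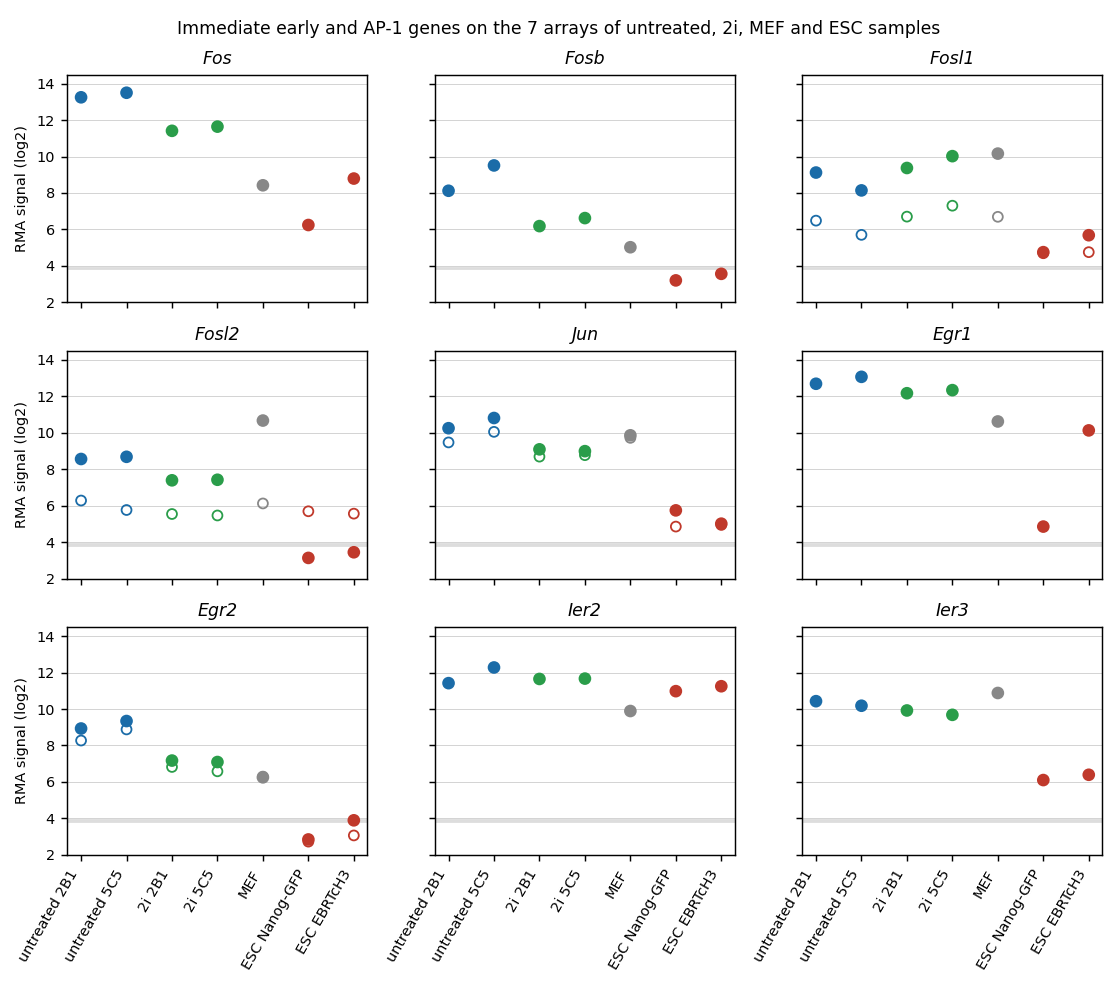
Log2 RMA signal of each gene on the 7 arrays outside the transduced cells, with filled points for the brightest probe set and open points for other probe sets of the gene. The grey line spans the 25th percentiles of these arrays, 3.81 to 3.89; Fosb, Fosl2 and Egr2 lie near or under it on both ESC arrays, while Ier2 stays above 9 on all 7.

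The first comparison asked what happened to the group when partial clones were converted under 2i. Fosl2, a Fos family member that pairs with Jun proteins, fell 2.31-fold and was the 1 gene of the 9 called by limma, against 2.46% of all tested genes called lower. Signals of 8 of the 9 genes were lower on average in 2i, with a median log2 difference of -1.21 against 0.03 over all genes, and Fosl1 was the exception. Of the 9 genes, 4 had an unadjusted p under 0.05, as did 24.3% of all tested genes. Of 10 fibroblast markers, 2 rose in the same comparison, Postn (1.96) and Col1a2 (1.5), and 9 were above 0, with a median of 0.85; their part in these results was not tested.

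Fosl2 read 8.56 in untreated 2B1 and 8.68 in untreated 5C5, against 7.39 and 7.42 under 2i. The groups did not overlap, and the arrays within each were close. Separation of 2 arrays from 2 can readily arise where nothing differs. The share of all tested genes that separate was not counted, here or below. The log2 difference was -1.21 (SE 0.20, limma adjusted p = 0.0343). A second, dimmer Fosl2 probe set stayed between 5.43 and 6.28 on all 14 arrays and showed -0.52 (adjusted p = 0.281, every probe set fitted), so the 2 probe sets disagree.

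Fos, which pairs with Jun proteins in AP-1, read 13.25 and 13.50 in the untreated clones and 11.41 and 11.64 under 2i. Both 2i arrays lay below both untreated arrays. The difference was -1.86 (SE 0.81, limma adjusted p = 0.246), and the standard error includes the wide gap between the ESC lines described further on. Fosb, a close relative of Fos, read 8.12 and 9.51 untreated and 6.18 and 6.62 under 2i. Its groups did not overlap, with a difference of -2.42 (SE 0.49, adjusted p = 0.0559).

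Jun, the main dimer partner of the Fos proteins, read 10.25 and 10.81 untreated and 9.09 and 8.99 under 2i. The difference was -1.49 (SE 0.33, limma adjusted p = 0.0687), and the other Jun probe set gave -1.03. Egr2, a zinc finger factor of the EGR family, read 8.93 and 9.34 untreated and 7.17 and 7.09 under 2i. Its difference was -2.0 (SE 0.39, adjusted p = 0.0504), and its other probe set gave -1.88 with an adjusted p of 0.0316. Neither gene's groups overlapped, with the same limit as for Fosl2.

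Egr1, the best known of the EGR factors, kept high signal under 2i. It read 12.69 and 13.07 untreated against 12.17 and 12.34, a difference of -0.63 (SE 1.64, limma adjusted p = 0.856). As for Fos, the standard error includes the wide gap between the ESC lines. Both 2i arrays of Egr1 lay below both untreated arrays, with the same limit as for Fosl2. With the 4 untreated and 2i arrays alone, its limma adjusted p was 0.135. Ier3, a small protein induced by stress and growth factors, read 10.43 and 10.18 against 9.92 and 9.68, a difference of -0.51 (adjusted p = 0.24). Ier2, an immediate early nuclear protein, overlapped between the groups: it read 11.42 and 12.28 untreated and 11.65 and 11.67 under 2i. Fosl1, a Fos family member found in fibroblasts and many tumour lines, read 9.12 and 8.14 untreated and 9.37 and 10.02 under 2i, a difference of 1.06 (adjusted p = 0.269).

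The count of called genes in this comparison depended on how the spread was estimated. With the 4 untreated and 2i arrays alone, and equally when either ESC array was left out, 4 genes were called: Fos (limma adjusted p = 0.0154), Egr2 (0.0154), Fosl2 (0.0239) and Jun (0.0379). Calls over all 12663 genes rose as well in these fits, from 760 to 1396. With the clone as a replicate block 3 were called, namely Fos (0.0304), Egr2 (0.0365) and Fosb (0.0446), and Fosl2 was at 0.0565, with 823 calls over all genes. Without untreated 5C5, or without either 2i array, none of the 9 was called, and calls over all genes fell to 370, 50 and 43. Without untreated 2B1 the called gene was Fosb (0.0314) in place of Fosl2 (0.0847).

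Other immediate early genes moved in the same comparison. Of 22 tested, 8 fell and 1 rose, with a median log2 difference of -1.09. The largest falls were of Egr3, a further EGR factor (-4.32, limma adjusted p = 0.0138), Myc (-3.71, 0.00413) and the orphan nuclear receptor gene Nr4a1 (-3.48, 0.00581). The gene that rose was Klf2 (4.0, adjusted p = 0.0139), which is also a naive pluripotency factor. Of 10 AP-1 partner genes 1 passed, Jdp2 at 1.85 (adjusted p = 0.0321). Of 10 ERK feedback genes, 1 fell, the ERK phosphatase gene Dusp5 (-2.52, adjusted p = 0.0219). In that list 1 gene was above 0, and the median difference was -0.54. None of 16 measured ERK cascade, SRF, TCF and CREB genes passed, nor did any of 9 heat shock and handling stress genes, in whose lists the median differences were 0.09 and 0.13. Of 13 AP-1 target genes 1 fell, the matrix protease gene Mmp13 (-2.61, adjusted p = 0.0139), and 6 were above 0, with a median of -0.31.

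The second comparison set the ESC lines against the untreated partial clones, both in LIF and serum. The groups also differ in sex and, for EBRTcH3, in strain, and the part of these was not tested. All 9 genes were lower on average in ESCs, and 7 fell: Fos, Fosb, Fosl1, Fosl2, Jun, Egr2 and Ier3, against 9.82% of all tested genes called lower. The median log2 difference of the 9 was -5.33, against 0.0 over all genes; it is Fosl2's value, whose size rests on ESC signals at background. Centring each array moved the median of all genes by 0.17 here, by -0.15 for 2i against ESCs and by 0.02 for 2i against untreated, and changed no call of these 9. In bulk RNA, fewer cells of a type and less RNA per cell cannot be told apart.

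Fosl2 read 3.13 in the Nanog-GFP line and 3.44 in EBRTcH3, under the 25th percentile of these arrays, so the size of its difference is set by background on the ESC side. The difference was -5.33 (SE 0.20, limma adjusted p = 0.000512). Its dimmer probe set showed -0.40 (adjusted p = 0.318). Jun read 5.74 and 5.01 in the ESC lines, a difference of -5.15 (SE 0.33, adjusted p = 0.00184). Fosb, at 3.20 and 3.56, was near background like Fosl2, and differed by -5.44 (adjusted p = 0.00367). Egr2 read 2.84 and 3.89 and differed by -5.77 (adjusted p = 0.00198).

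Ier3 read 6.10 and 6.39 in the ESC lines and fell by 4.06 (SE 0.22, limma adjusted p = 0.00124). Fosl1 read 4.75 and 5.68 and fell by 3.41 (adjusted p = 0.0136); its other probe set showed -1.36 (adjusted p = 0.0603). Fos fell by 5.86 (SE 0.81, adjusted p = 0.0121), from 13.25 and 13.50 to 6.24 and 8.79. Its adjusted p became 0.0504 without untreated 2B1 and 0.0506 without untreated 5C5. Ier2 had the smallest difference, at 10.98 and 11.25 in ESCs, with a difference of -0.74 (adjusted p = 0.189).

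**Figure D2:**
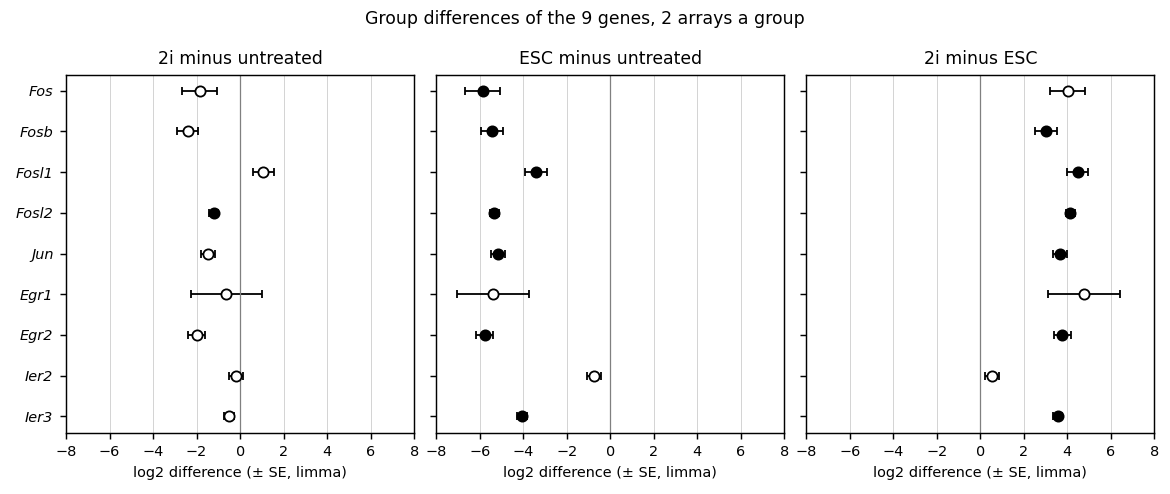
Log2 difference of each gene in the 3 comparisons with 2 arrays a group, with the limma standard error as a bar; filled points passed an adjusted p of 0.05. The bars of Egr1 are the widest in each panel, and Ier2 lies nearest to 0 in each.

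Egr1 had the widest gap between the 2 ESC lines of the 9 genes. It read 4.85 in the Nanog-GFP line and 10.13 in EBRTcH3, a gap of -5.28, against gaps of -0.38 between the untreated clones and -0.18 between the 2i arrays. Of 12663 tested genes 15, Egr1 among them, were at least this far apart between the lines (0.118%). The group difference was -5.39 (SE 1.64, limma adjusted p = 0.0881). Without the Nanog-GFP array it was -2.75 (adjusted p = 0.00935) and without the EBRTcH3 array -8.03 (adjusted p = 0.00323), in fits that lend the single ESC line the spread of the other groups.

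Fos showed the same order of the lines, with a gap of -2.56 that 1.74% of tested genes reached. By brightest probe sets 3 of the 9 genes were at least 2-fold lower in the Nanog-GFP line, where 6.77% of all tested genes were. The third was Egr2 (-1.05), whose ESC signals are near background and whose other probe set gave -0.35. Fosb, Fosl2, Ier2 and Ier3 differed by -0.27 to -0.36. Fosl1 differed by -0.93 and Jun by 0.73, where their other probe sets gave -0.06 and -0.09. Of 10 ERK feedback genes, 5 were at least 2-fold lower in the Nanog-GFP line and none was higher, with a median of -0.96 against 0.04 over all genes. They included the ERK phosphatase genes Dusp4 (-4.96) and Dusp6 (-2.13) and the ERK pathway inhibitors Spry4 (-3.09) and Spred1 (-2.0). Of 10 AP-1 partner genes, 3 were lower: Maff (-2.56), Atf3 (-2.28) and Junb (-1.35). The other immediate early genes did not follow this order, with 4 of 22 higher in the Nanog-GFP line and 1 lower; Gadd45b was higher by 2.65 and Ccn1 by 2.62. The lines differ in strain and origin and have 1 array each, so the line gaps have no test, and the part of strain, line and culture cannot be told apart.

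**Figure D3:**
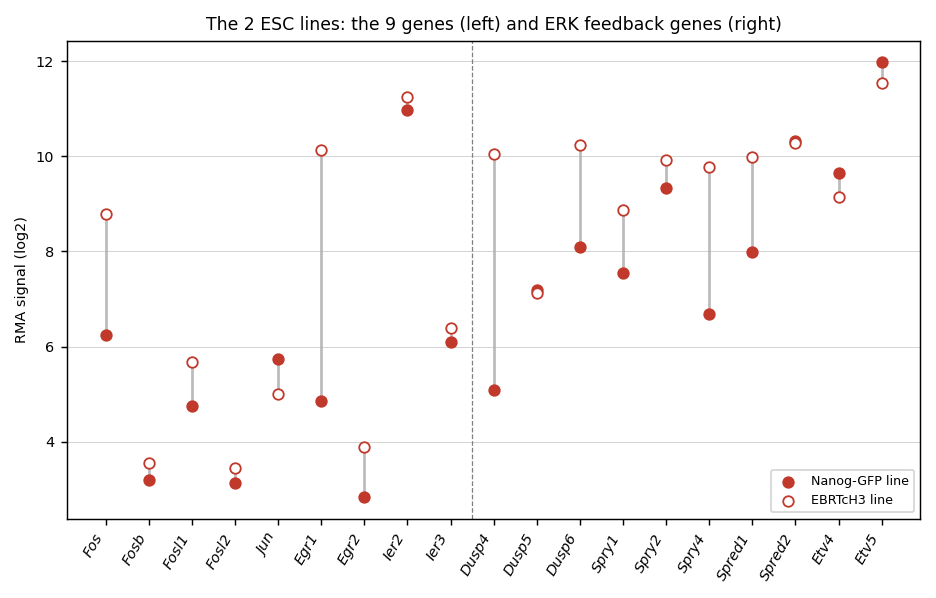
Log2 RMA signal of the 9 genes and of 10 ERK feedback genes on the 2 ESC arrays, joined by a line for each gene. Egr1 and Dusp4 show the widest gaps, with the Nanog-GFP line the lower in both.

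Among the other lists, 13 of 22 immediate early genes fell from untreated cells to ESCs and 1 rose. Among them were Egr3 (-6.79, limma adjusted p = 0.00201), the matricellular protein gene Ccn1 (-5.39, 0.0163) and Myc (-4.29, 0.0014), while Klf2 rose by 4.85 (0.00377). Of 10 AP-1 partner genes, Atf3 (-3.86), Junb (-2.64) and Mafk (-1.33) fell. Of 13 AP-1 target genes, 7 fell and 1 rose. The adhesion receptor gene Cd44 fell by 8.81 (limma adjusted p = 0.000249), and the matrix protease genes Mmp3 (-4.91) and Mmp13 (-3.47) and the cytokine gene Il6 (-2.87) fell too. ESC signals of Cd44 (2.93 and 2.92), Mmp13 (3.14 and 2.86) and Il6 (3.08 and 2.47) were at background, which sets the sizes of these differences. Of the 10 fibroblast markers, 8 fell too, with a median of -3.66, and their part in these results was not tested. No heat shock and handling stress gene of 9 passed.

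The third comparison asked what remained different between 2i iPSCs and ESCs, both of which had signal for all 10 naive markers. Of the 9 genes, 6 were higher in 2i iPSCs, Fosb, Fosl1, Fosl2, Jun, Egr2 and Ier3, against 3.69% of all tested genes called higher. The median log2 difference of the 9 was 3.77, against 0.0 over all genes; it is Egr2's value, whose size rests on ESC signals near background. Here the 2 groups also differ in medium, sex and, for 1 line, strain.

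Fosl1 showed 4.48 (SE 0.49, limma adjusted p = 0.0127), with 2i signals of 9.37 and 10.02 against ESC signals of 4.75 and 5.68. Fosl2 showed 4.13 (adjusted p = 0.00227), Egr2 3.77 (0.0105), Jun 3.66 (0.00789) and Ier3 3.55 (0.00345). In each of these the lower 2i array lay above the higher ESC array, a separation whose share over all tested genes was not counted. The dimmer Fosl2 probe set gave -0.12 (limma adjusted p = 0.852, every probe set fitted), so the Fosl2 probe sets disagree. The other probe sets of Fosl1, Egr2 and Jun gave 2.27, 3.81 and 3.83. Fosl2 signals in ESCs, 3.13 and 3.44, were at background, which sets the size of its difference. Fosb showed 3.02 (adjusted p = 0.0396), and it did not pass without the filter on dim genes (0.0536), without the Nanog-GFP array (0.0954) or without EBRTcH3 (0.0884).

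Fos (4.01, adjusted p = 0.0748) and Egr1 (4.76, 0.252) did not pass by limma, although both 2i arrays lay above both ESC arrays. Leaving out an ESC array called Fos, at 0.0144 without the Nanog-GFP array and 0.0126 without EBRTcH3, and called Egr1, at 0.0252 and 0.0126. Ier2 showed 0.54 (adjusted p = 0.507). Without either 2i array none of the 9 was called, and 1 or 0 of all 12663 genes were. Of 10 fibroblast markers, 9 were also higher in 2i iPSCs than in ESCs, with a median of 4.51. Of 13 AP-1 target genes 5 were higher, led by Cd44 (8.28, adjusted p = 0.000538), Mmp3 (3.88), Il6 (3.59) and the protease gene Plau (3.04), and 2 of 22 other immediate early genes, Ier5 (2.70) and Nr4a2 (1.70), were higher.

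On the MEF array members of the Fos family differed in direction, by their brightest probe sets. Fosl2 (10.67) and Fosl1 (10.16) lay at least 2-fold above both untreated clones, whereas Fos (8.42), Fosb (5.02), Egr1 (10.62), Egr2 (6.25) and Ier2 (9.89) lay at least 2-fold below both. Over all tested genes 9.9% were higher by this rule and 11.3% lower. The other probe sets of Fosl2 (-0.16 and 0.36 from the 2 clones) and Fosl1 (0.21 and 0.99) did not reach 2-fold, so for both genes the probe sets disagree. Jun (9.86) and Ier3 (10.88) were within 2-fold of both clones. With 1 array there is no replicate check. At a difference of at least 4-fold, 4 passed, and the share of all tested genes was not counted at that limit.

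Fos on the MEF array lay between the 2 ESC arrays. For Fosb, Egr1 and Egr2 the order was untreated, 2i, MEF and ESC, with no overlap between neighbours. Of 22 other immediate early genes, 8 were lower on the MEF array and 4 higher; Myc (-3.36), Egr3 (-2.70) and Nr4a1 (-2.53) were lower and Ccn2 (2.39) higher. Of 13 AP-1 target genes 6 were higher and none lower, led by the metallothionein genes Mt2 (2.38) and Mt1 (2.17), with Plau (1.52) and Hmox1 (1.49) behind. Hspa1b, a heat-inducible chaperone gene, was 3.32 higher on the MEF array, the 1 of 9 stress genes past 2-fold.

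The genes most like these across the 7 arrays were found by Pearson r of log2 values, which is a description over arrays that share clones. Over 12654 other genes, Fos was most like Pphln1 (0.981), Yod1, Ndfip2, Atf3 (0.97) and Gnai3. Egr1 was most like 4930523C07Rik (0.975), Sgms2, Rdh5, Zfp943 and Zfp942. Jun was most like Cd14 (0.993), Ecpas, Nrn1, Anxa4 and Plekhh3, and Ier3 was most like Ankrd1 (0.993), S100a4, Tm4sf1, Slc36a4 and Rela. S100a4 is on the fibroblast marker list. An r of at least 0.9 was reached by 85 genes for Fos, 74 for Egr1, 311 for Jun and 447 for Ier3. Among the members, Fos correlated at 0.94 with Fosb and with Egr2 over these 7 arrays, and Fosl2 at 0.97 with Ier3. Over the 7 transduced arrays the nearest genes were others: Gaa (0.996), Fau, Tmed3, Ipo7 and Coq8a for Fos, Cdr2l (0.983), Trim54, Ier5l, Norad and Rtf2 for Egr1, Irf9 (0.987), Bcl2l11, Rasl11b, Gm527 and Btg2 for Jun, and Itgb2l (0.98), Prdm14, Ccnb1ip1, Cdc42bpg and Glrx for Ier3. There an r of at least 0.9 was reached by 467 genes for Fos, 23 for Egr1, 61 for Jun and 26 for Ier3. Fos and Fosl1 correlated at -0.82 over the transduced arrays.

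The transduced arrays need 2 measurements in front of their results. First, of 1346 genes at least 2-fold apart between the untreated clones, the array labelled empty vector lay nearer untreated 5C5 for 69.8% and the array labelled Nanog for 63.1%, although both are labelled 2B1. The share was 17.5% to 25.2% on the Cnot1, Cnot2, Cnot3 and Cnot123 arrays and 47.3% on the Trim28 array. After quantile normalization over all 14 arrays the empty vector share was 72.1%. Second, the factors' own probe sets were not raised: on the array labelled Nanog, Nanog read 3.12 against 4.11 with empty vector, Trim28 differed by -0.01 and -0.33 on its own array, Cnot3 by 0.06 and 0.30, and the 4 brighter Cnot2 probe sets by -0.32 to 0.08. Cnot1 had no probe set named for it alone. Whether these probe sets cover the introduced cDNAs is not given, so the arrays are named by label only.

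**Figure D4:**
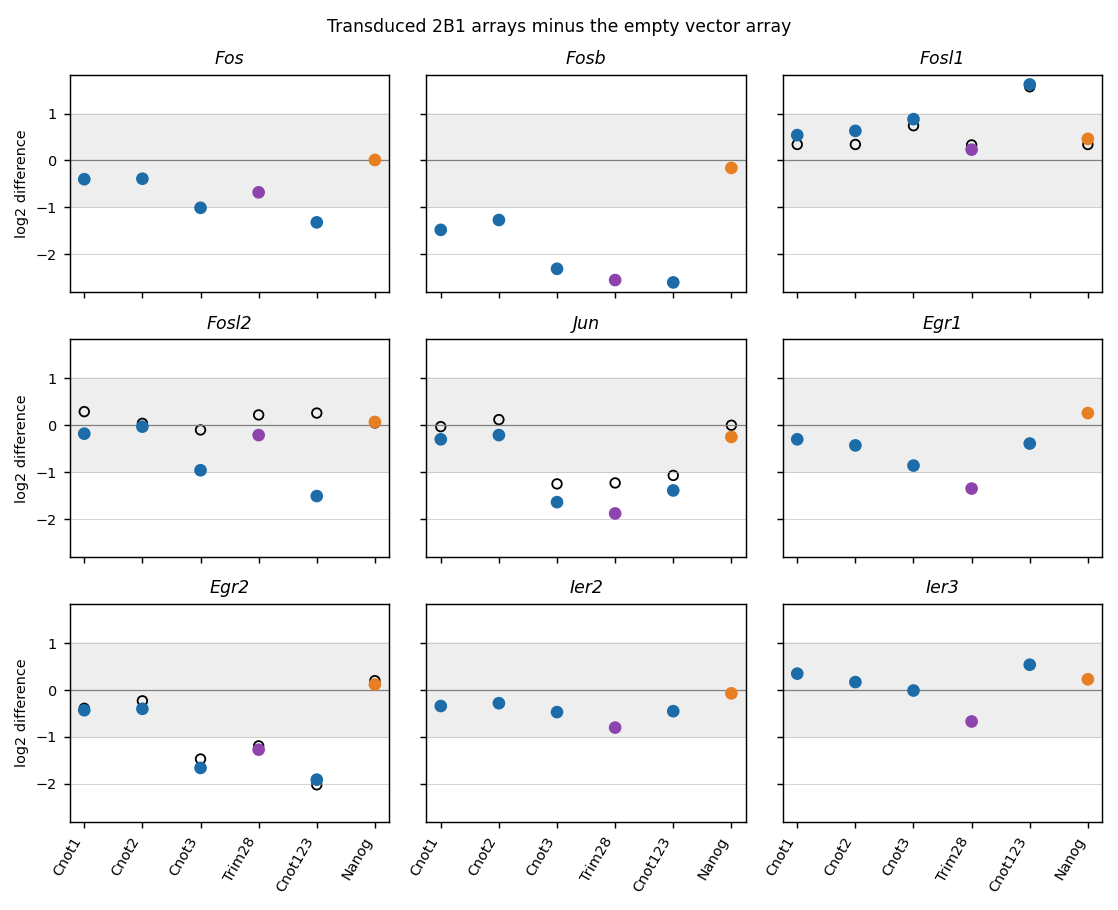
Log2 difference of each gene on 6 transduced arrays from the empty vector array, filled for the brightest probe set and open for others, with grey marking differences under 2-fold. Fosb lies below the grey band on the 5 Cnot and Trim28 arrays, and every gene lies inside it on the Nanog array.

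Against the empty vector array, the arrays labelled Cnot3, Trim28 and Cnot123 had lower Fosb, Jun and Egr2, and the arrays labelled Cnot1 and Cnot2 had lower Fosb alone, each by at least 2-fold. In all, 16 of 54 differences were at least 2-fold, 15 of them lower. On the Cnot3 array 4 genes were lower (Fos, Fosb, Jun and Egr2), where 5.19% of all tested genes were; Fos was at the limit and fell short of it when arrays were centred. On the Trim28 array 4 were lower (Fosb, Jun, Egr1 and Egr2), where 1.52% were, and 5 on the Cnot123 array (Fos, Fosb, Fosl2, Jun and Egr2), where 8.43% were. On the Cnot1 and Cnot2 arrays 5.87% and 3.89% of all genes were lower. On the Nanog array none of the 9 passed 2-fold in either direction, where 0.561% of all genes were higher and 0.869% lower.

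Fosb read 10.41 with empty vector and 10.25 with Nanog, against 8.93 with Cnot1, 9.14 with Cnot2, 8.10 with Cnot3, 7.86 with Trim28 and 7.81 with Cnot123. The empty vector and Nanog arrays were the highest. Jun read 10.32 with empty vector and 10.02, 10.11 and 10.07 with Cnot1, Cnot2 and Nanog, against 8.68 with Cnot3, 8.44 with Trim28 and 8.93 with Cnot123, so that 3 arrays stood below the other 4. The other Jun probe set placed the arrays the same way, at 8.81 to 8.99 against 10.03 to 10.18.

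Egr2 read 10.67 with empty vector and 10.24, 10.27 and 10.79 with Cnot1, Cnot2 and Nanog, against 9.01 with Cnot3, 9.40 with Trim28 and 8.76 with Cnot123. Fos spanned 12.53 on the Cnot123 array to 13.86 on the Nanog array. Fosl1 was the gene that went the other way: it read 7.54 with empty vector and 9.16 with Cnot123, 1.61 higher, where 3.72% of all genes were at least 2-fold higher. Egr1 was lowest on the Trim28 array, at 11.58 against 12.93 with empty vector.

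The choice of control mattered for which genes stood out. With the Nanog array as control and the empty vector array left out, 18 of 45 differences passed 2-fold, 17 of them lower, where 1.67% to 7.9% of all tested genes were lower on these 5 arrays. Fosb, Jun and Egr2 were again lower on the Cnot3, Trim28 and Cnot123 arrays. The Nanog array also lay nearer untreated 5C5, so this control shares that feature. With untreated 2B1 as control, set across the separately normalized sets after quantile normalization over 14 arrays, Jun alone of these 3 was lower on those arrays, while Fosb and Egr2 were within 2-fold there and at least 2-fold higher on the empty vector, Cnot1, Cnot2 and Nanog arrays. Ier3 was lower than untreated 2B1 on all 7 transduced arrays by this measure. Without that normalization, 7 of 10 fibroblast markers were also at least 2-fold lower on the empty vector array than in untreated 2B1 and none was higher, with a median of -3.02, S100a4 (-3.25) among them; their part in the Ier3 difference was not tested. The part of the empty vector array's nearness to untreated 5C5 in these differences was not tested.

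The other immediate early genes were counted on the same arrays. Of 22, 7 were at least 2-fold lower on the Cnot3 array, 7 on the Trim28 array and 12 on the Cnot123 array, 3 on Cnot1, 1 on Cnot2 and none on Nanog. Arc, a neuronal immediate early gene, differed from empty vector by -5.46 with Cnot123 and by -3.22 with Cnot3. It is also a gene that differed between the clones, at 5.32 in untreated 2B1 and 10.24 in untreated 5C5, with 10.44 on the empty vector array. Of 10 ERK feedback genes, 4 were lower on the Cnot123 array, Dusp5 (-2.22), Dusp4 (-2.01), Spry1 (-1.68) and Dusp6 (-1.45). On the Cnot1 and Cnot3 arrays 2 each were lower, Dusp4 (-1.88 and -1.66) and Dusp5 (-1.01 and -1.45), on the Cnot2 array Dusp4 (-1.34), and on the Trim28 and Nanog arrays none. Fibroblast markers were higher for 5 of 10 and lower for 2 on the Cnot123 array. Their part in these differences was not tested.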

How the data were processed

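RNA of 14 cultured mouse samples was measured with 1 Affymetrix array each. Per the submitters' processing notes, the deposited log2 values were made by the authors with RMA and affy, with versions not given in the sources used here; RMA corrects background, quantile-normalizes and summarises probes. The deposited log2 values fall into 2 sets of 7 arrays with means of 6.09 and of 5.87 to 5.88, treated as normalized apart. Probe sets were named from the platform annotation, leaving out 932 with several genes and 9160 with none; 34741 matched the RefSeq table of GRCm38.p6. A gene was its brightest probe set over the 14 arrays, tested if at least 2 arrays reached 5.42.

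Groups of 2 arrays entered 1 limma fit of 6 arrays (limma 3.58.1, R 4.3.3; residual degrees of freedom 3, prior 2.25), two-sided, with Benjamini-Hochberg adjustment over 12663 genes and a call at 0.05. The spread behind each p is that between separate clones or lines, since nothing was repeated within one. Untreated and 2i arrays of a clone are paired by their cell line in the labels (correlation of deviations 0.11), and the replicate block was an alternative. Conditions with 1 array were counted at a log2 difference of 1. The script was tested on simulated data. Alternatives were the dim filter, centring, quantile normalization, every probe set, the 4 compared arrays, limma-trend and leaving out arrays. The members, lists and tests were chosen with earlier results of these data known. All members are named; from a list, up to 4 genes past the test or fold with the largest change are named, and for likeness the 5 genes with the highest r for Fos, Egr1, Jun and Ier3. Ptprc, Cd68, Zfp42, Arc in the untreated clones and S100a4 on the empty vector array were named after their values were seen. Precision is limited by how few arrays there are. The lists of EGR corepressors and of AU-rich decay factors were also counted: from untreated to 2i cells 0 of 2 and 2 of 9 fell by limma, the latter Zfp36 (-2.59) and Tob1 (-1.25), and of 3 tested endothelial markers 1 rose and 1 fell.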

Additional observations from a re-analysis of the deposited data

Results flagged for a closer look

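Ier2 moved in opposite directions in the 2 clones between untreated and 2i arrays. The log2 difference was 0.23 in clone 2B1 and -0.61 in clone 5C5, each from 1 array a condition. The difference between the clones was not tested.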

How the results depend on the processing

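For 2i against untreated cells, 1 of the 9 genes was called by limma. Quantile normalization called 2, every probe set 2, the 4 compared arrays 4 and the replicate block 3, and leaving out 1 array gave 0 to 4. The cause was not tested, except that without an ESC array the spread between ESC lines leaves the fit. The replicate block was fitted for this comparison only. For ESCs against untreated cells 7 were called, and 6 to 8 with an array left out. For 2i against ESCs 6 were called, and 0 to 7 with an array left out. For the MEF array 7 genes passed 2-fold and 4 passed 4-fold, and leaving out a clone gave 7 to 7. For the transduced arrays 16 differences passed 2-fold and 3 passed 4-fold. With the Nanog array as control, chosen after seeing the data, 18 passed 2-fold. Shares of all tested genes at 4-fold were not counted for the MEF or the transduced arrays. Ier2, at -0.19 for 2i against untreated, reversed to 0.24 without untreated 5C5 and was -0.62 without untreated 2B1. Of the members' other values under the alternatives of the 3 tested comparisons, 290 kept their direction and side of the threshold, 20 moved past it and 22 lost it. These counts hold repeats, since leaving out either array of the group not compared gave the same fit as the 4 compared arrays alone. With 2 arrays a group, small differences cannot be resolved, and signals of Fosb, Fosl2 and Egr2 in ESCs lie near background.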
